A study of Danio rerio with 3 samples.

Results

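The comparison described here sets a library of heterozygous setd2 zebrafish embryos (setd2+/-, labelled HE) beside a library of wild-type embryos (labelled WT). Both were made from the whole body of Tubingen strain embryos at 36 h post fertilization (hpf), with 1 library for each genotype. Another library, from homozygous embryos (setd2-/-, labelled HO) of the same strain and age, gave a further value for each gene. The paper describes the 3 genotypes as littermates and states that embryos were kept in egg water with N-phenylthiourea, which blocks pigment formation. The labels do not name the mutant allele, the paper's default line is E3fs1, which carries a frameshift made by CRISPR/Cas9, and the number of embryos in each library is not given in the sources used here. The genes described are those with a mean of at least 10 counts over the 3 libraries, which were 18966 of the 32520 genes in the table. The heterozygous embryos carry 1 intact copy of the gene in every cell, so that the comparison concerns a reduced gene dose and not its loss.

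Setd2 is the enzyme that places the third methyl group on lysine 36 of histone H3 (H3K36me3), a mark of the bodies of transcribed genes. By immunoblot at a later age, the paper found H3K36me3 strongly decreased in homozygous embryos relative to both wild-type and heterozygous ones. Proteins that read H3K36me3 act in splicing, in DNA methylation and in the repair of DNA. At this stage the zebrafish embryo has a beating heart and circulating primitive red blood cells, the lens is laying down its first fibre cells, the trunk muscle is contractile, and the hatching gland holds the proteases that will open the egg envelope. The yolk still supplies nutrients.

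The counts summed to 13340950 in the WT library, 12760683 in the HE library and 14160325 in the HO library. The 10 genes with the most counts held 7.55% to 7.97% of each library. Since there was 1 library for each genotype, a difference has no replicate check, and no p-value is given. Each log2 ratio of HE over WT is of counts scaled by TMM (edgeR's scaling factors for library size and composition) with a prior count of 2. It is given with an exact 95% interval that covers counting error only and compares these libraries, not the genotypes. Sampling, staging and preparation of the embryos are not covered by it and cannot be told apart from genotype. A gene was called past counting error where this interval excluded 0, and past 2-fold where the log2 ratio was at least 1 or at most -1. In a whole embryo, fewer cells of a type and less RNA per cell cannot be told apart.

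The defining markers of tissues of a whole embryo at this age were present in both libraries. Among them were krt4 of skin with 124712 counts in WT and 133538 in HE, elavl3 of neurons with 10660 and 9836, myl7 of heart muscle with 540 and 517, and kdrl of vessels with 828 and 671. The hepatocyte gene fabp10a, which comes on as the liver matures, had 1 count in WT and 0 in HE. Both lie at or under the floor of 3 counts, so that no difference was detectable at this depth. None of 24 genes of oocytes in the table reached the minimum mean count.

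Gene expression differed little between the libraries in most genes. The median log2 ratio of the 18966 genes was 0.0065, the quartiles were -0.18 and 0.16, and 9673 genes were higher in HE and 9293 lower. The log2 ratio was past 2-fold in 186 genes that were higher in HE (0.981% of genes tested) and 324 that were lower (1.71%). These 510 genes (2.69%) were mostly genes with few counts. Of the 12301 genes with at least 100 counts in the higher of the WT and HE libraries, a threshold chosen for the named genes, 28 were higher past 2-fold and 18 lower (0.374% in all). Of the other 6665 genes, 158 were higher and 306 lower (6.96%). Past counting error were 2493 genes that were higher (13.1% of genes tested) and 2339 that were lower (12.3%), together 25.5%. This share grew with depth, from 12.1% of genes with a mean under 20 counts in WT and HE to 68.3% of those with 5000 or more. A count of genes past counting error in a list of abundant genes is therefore to be read against the latter share. The robust SD of the log2 ratio of genes with 5000 or more counts was 0.095, whereas counting alone gave 0.022.

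**Figure D1:**
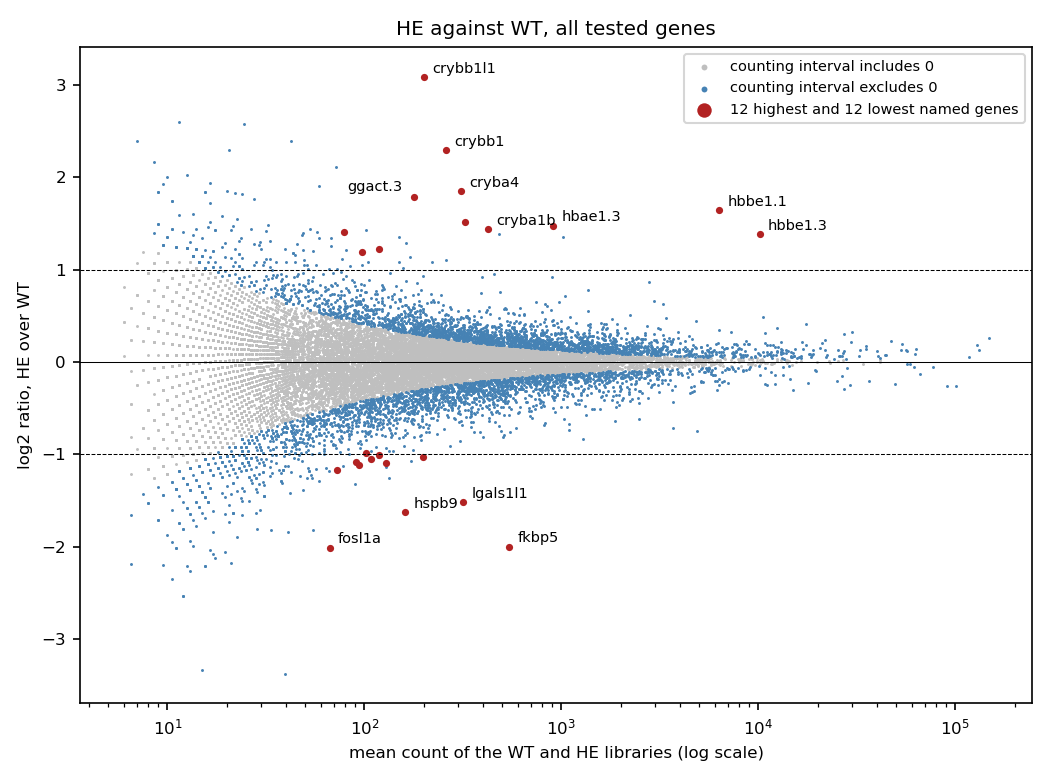
The mean count of the WT and HE libraries (log scale) is plotted against the log2 ratio of HE over WT for each of the 18966 tested genes. Blue points have a counting interval that excludes 0, red points are the 12 highest and 12 lowest named genes, and the dashed lines mark log2 ratios of 1 and -1. The points fan out at low counts, and crybb1l1, crybb1, hbbe1.1 and hbbe1.3 lie above the spread of genes with similar counts while fkbp5 lies below it.

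Of the named genes with the greatest log2 ratios, 4 encode lens crystallins, 3 encode embryonic globins and 2 encode a cyclotransferase. Those with the lowest log2 ratios include the immunophilin gene fkbp5, the AP-1 gene fosl1a, the small heat shock gene hspb9 and the clock-output gene tefb. To place these genes in tissues and processes, the genes were grouped in 84 lists, of which 35 stand for tissues and 49 for processes. Of the 81 lists with at least 5 tested genes, 56 had a median log2 ratio within 0.1 of 0. The median was above 0.2 in 5 lists, which were the lens membrane genes, hatching gland, germ cells, lens crystallins and red blood cells. It was below -0.1 in 6 lists, which were the interferon response, pronephros, Wnt targets, H3K36 writers, yolk lipoproteins and fast skeletal muscle.

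**Figure D2:**
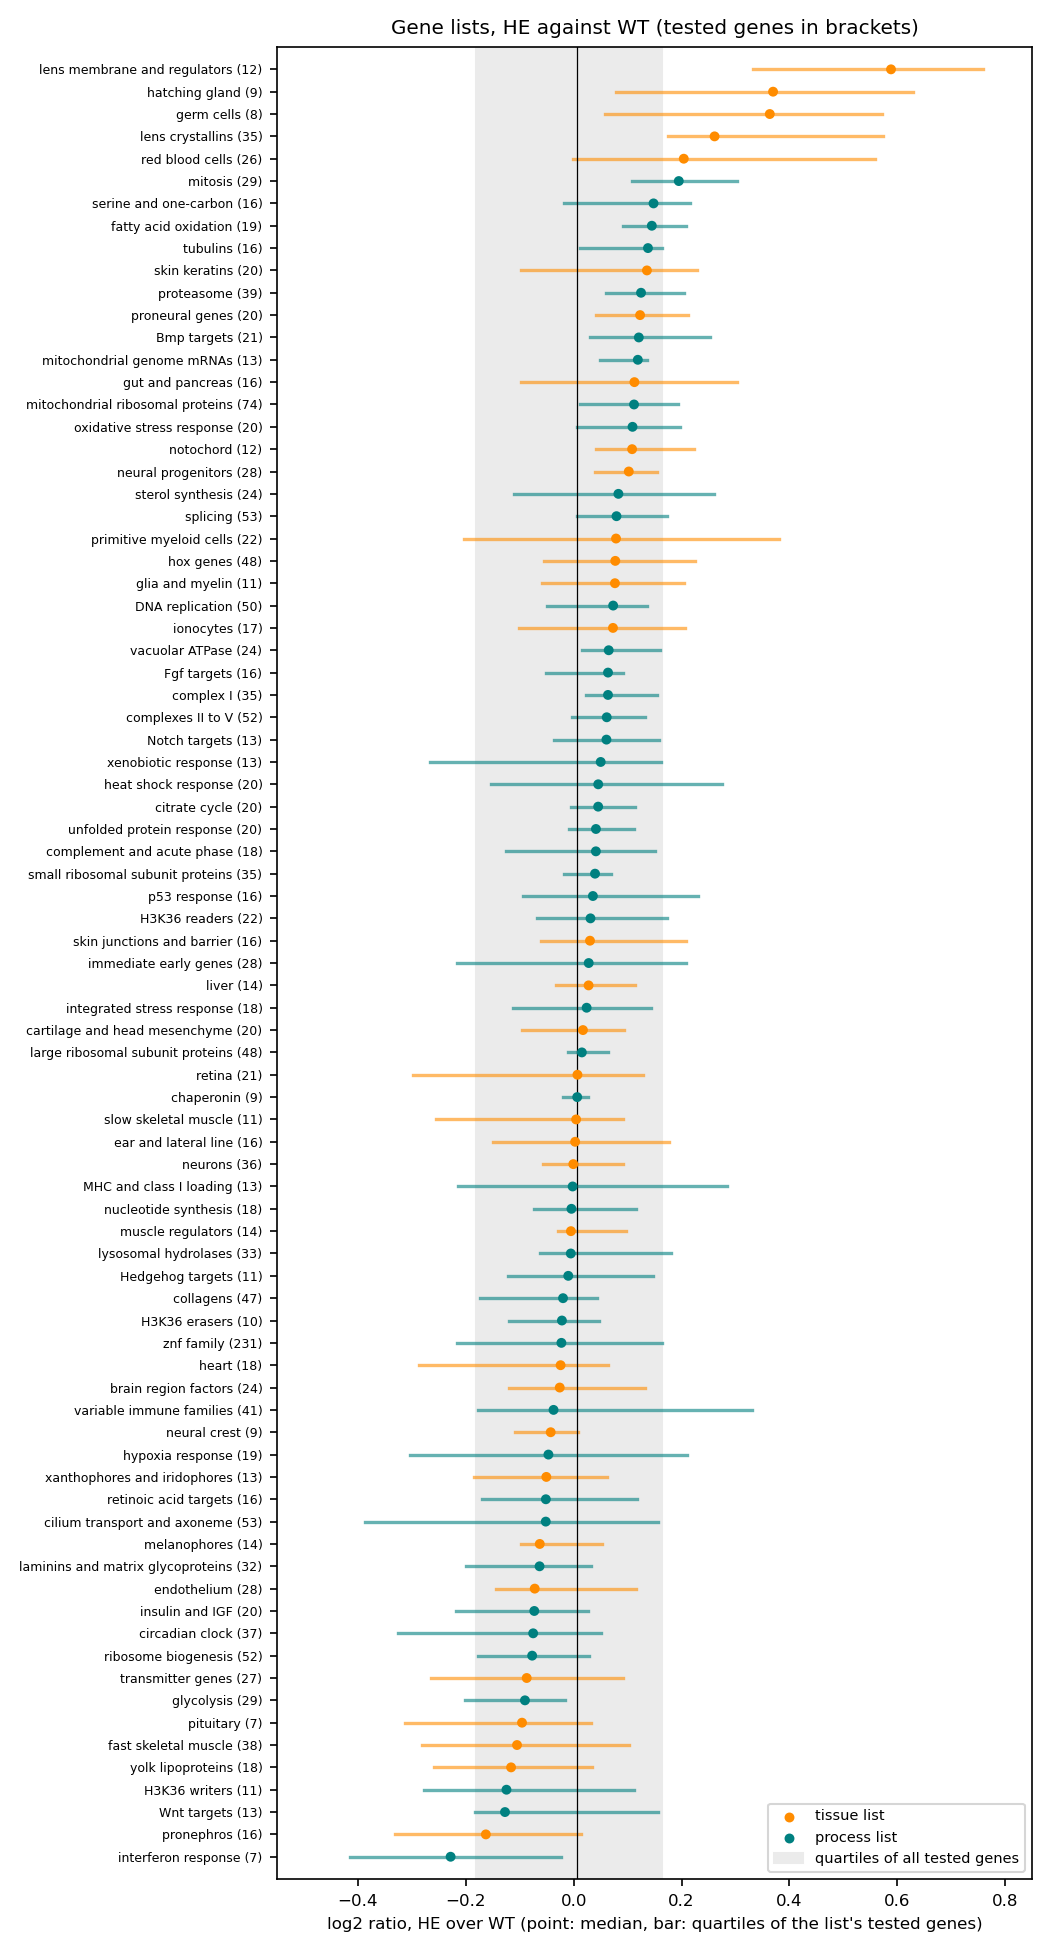
Each row is a gene list with at least 5 tested genes (81 lists, number of tested genes in brackets), ordered by the median log2 ratio of HE over WT. Points are medians and bars are the quartiles of the list, in orange for tissues and teal for processes, and the grey band spans the quartiles of all tested genes, -0.18 to 0.16. The lens membrane list (0.59) stands at the top and the interferon response list (-0.23, 7 genes) at the bottom.

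The lens genes were higher in HE. Crystallins are the proteins that fill lens fibre cells and give the lens its refractive power. Of 56 crystallin genes in the table, 35 reached the minimum mean count and 21 did not. The 35 genes had a median log2 ratio of 0.26 (quartiles 0.17 and 0.57), against 0.0065 for all genes. Of them 30 were higher and 5 lower. Past counting error were 23 (65.7%, against 25.5% of all tested genes), each of these being higher. Past 2-fold were 6, also higher. In crybb1l1, which encodes a beta crystallin, the counts were 43 in WT, 358 in HE and 265 in HO, and its log2 ratio of 3.09 (2.69 to 3.64) was the highest of the 18966 tested genes, ahead of si:dkey-256e7.5 at 2.61 with 2, 21 and 14 counts. The beta crystallin gene crybb1 had 91, 428 and 242 counts in WT, HE and HO (2.3, 2.0 to 2.67). The WT library was thus the low one in both genes, and HE was above HO. In cryba4 the counts were 140, 480 and 639 (1.85, 1.59 to 2.15), with HO above HE. In cryba1b they were 239, 613 and 447 (1.44, 1.23 to 1.67).

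The large differences were not shared by all crystallins. The 3 crystallin genes with the most counts differed less. The beta crystallin gene cryba2b had 2324 counts in WT, 2308 in HE and 2605 in HO (0.08, -0.0027 to 0.16), crygn2 of the gamma N type had 1469, 1833 and 2154 (0.41, 0.31 to 0.51), and cryba2a had 1450, 1536 and 1697 (0.17, 0.07 to 0.28). Among the gamma M crystallins, the near-identical copies of crygm2d share reads in ways that the counting could split, and their values are uncertain one by one. Summed over 20 copies, their counts were 10794 in WT, 11468 in HE and 11821 in HO, a log2 ratio of 0.18 (0.14 to 0.22). The 16 beta crystallin genes summed to 7371, 9330 and 9903, a log2 ratio of 0.43 (0.39 to 0.48). The lens marker cryaa, an alpha crystallin, had 37, 63 and 89 counts.

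A second list held 12 tested genes for lens membrane proteins, the beaded filaments of lens fibres and lens transcription factors. Its median was 0.59, with 10 genes higher and 2 lower, and 7 of the higher genes and none of the lower genes were past counting error. That was 58.3% of the list, against 25.5% of all tested genes. The water channel genes of fibre cell membranes, mipa and mipb, had 282, 505 and 562 counts (0.93, 0.72 to 1.15) and 424, 596 and 562 counts (0.58, 0.40 to 0.77) in WT, HE and HO. The beaded filament gene bfsp2 had 34, 64 and 68 counts (0.96, 0.38 to 1.65), and the fibre membrane gene lim2.4 had 361, 437 and 501 (0.36, 0.16 to 0.57). In each of these 4 genes the WT library was the lowest of the 3. The transcription factor genes pitx3 and foxe3, named after their values were seen, were the 2 lower members, at -0.23 (213, 170 and 230 counts) and -0.06 (30, 27 and 43 counts), neither past counting error. The 21 tested genes of the retina, another part of the eye, had a median of 0.0070. Past counting error were 1 gene higher and 5 lower (28.6%, near the 25.5% of all tested genes). The photoreceptor gene crx had 818, 650 and 860 counts (-0.24, -0.39 to -0.09) and the bipolar cell gene vsx1 had 620, 454 and 542 (-0.36, -0.54 to -0.18).

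The red blood cell list (26 of 26 genes tested) had a median log2 ratio of 0.20. Past counting error were 15 genes higher and 2 lower (65.4%, against 25.5% of all tested genes). The high members of the list were globins. The beta globin gene hbbe1.1 had 3218 counts in WT, 9459 in HE and 10139 in HO (1.65, 1.59 to 1.70), hbbe1.3 had 5875, 14411 and 13852 (1.39, 1.34 to 1.43), and the alpha globin gene hbae1.3 had 501, 1315 and 1386 (1.48, 1.33 to 1.63). In these genes the WT library was the low one, and HE and HO lay close to each other. The globin gene with the most counts, hbae3, had 28165, 30658 and 29866 (0.21, 0.19 to 0.24). The globins stand in near-identical copies, so that a single copy's value is uncertain. Summed over the 3 hbbe1 copies the counts were 11002, 26179 and 25928 (1.34, 1.31 to 1.37), and over the 3 hbae1 copies 1465, 2787 and 3500 (1.02, 0.93 to 1.11). All 15 globin genes together held 0.331% of counts in WT, 0.499% in HE and 0.452% in HO, a log2 ratio of HE over WT of 0.62 (0.60 to 0.63).

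Of the 26 genes, the 10 globins were all higher past counting error, with a median of 0.67 (0.21 to 1.65 from lowest to highest). The 16 genes that are not globins, a split made after the values were seen, had a median of 0.05 (-0.21 to 0.61), with 9 higher and 7 lower, 5 and 2 of them past counting error and none past 2-fold. The haem breakdown gene blvrb, named like tfr1a after its values were seen, was the highest of these, with 133, 192 and 38 counts in WT, HE and HO (0.61, 0.29 to 0.95). The transferrin receptor gene tfr1a was the lowest, with 613, 496 and 739 (-0.21, -0.39 to -0.04). The gene for the first enzyme of haem synthesis in red cells, alas2, had 2754, 2556 and 3361 counts (-0.02, -0.09 to 0.06), and the transcription factor gene gata1a had 99, 91 and 98 (-0.03, -0.46 to 0.39).

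The hatching gland list, with 9 of 11 genes tested, had a median of 0.37, and 4 genes were higher and none lower past counting error. That was 44.4% of the list, against 25.5% of all tested genes. The hatching enzyme gene he1.1 had 11231 counts in WT, 13626 in HE and 10342 in HO (0.37, 0.33 to 0.41), and he1.2 had 2674, 3884 and 2178 (0.63, 0.56 to 0.70). HE was the highest of the 3 libraries in both. Summed over 3 he1 copies, the log2 ratio was 0.42 (0.39 to 0.46) for HE over WT and -0.23 (-0.27 to -0.20) for HO over WT, which rests on the same WT library. Of 2 genes named ctslb, a cathepsin of the gland, 1 had 1041, 1684 and 773 counts (0.78, 0.67 to 0.90) and the other 1054, 1329 and 1158 (0.42, 0.31 to 0.54). The protease gene nots, named after its values were seen, had few counts, 5, 11 and 21 (0.97, -0.41 to 3.10), and HO was its highest library, with a log2 ratio over WT of 1.64 (0.54 to 3.75). The gland's transcription factor xbp1, which is used in other secretory cells too, had 4586, 4240 and 4690 (-0.02, -0.08 to 0.04).

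Germ cell genes had few counts. Of 17 genes, 8 were tested, with a median of 0.36. The share past counting error was 25%, near the 25.5% of all tested genes, with 2 higher and 0 lower. These were the helicase gene ddx4 (vasa), with 20, 35 and 41 counts (0.84, 0.07 to 1.77), and the tudor domain gene tdrd7b, with 33, 51 and 54 (0.69, 0.06 to 1.40). The germ cell marker nanos3 went the other way, with 35, 21 and 31 counts, not past counting error.

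**Figure D3:**
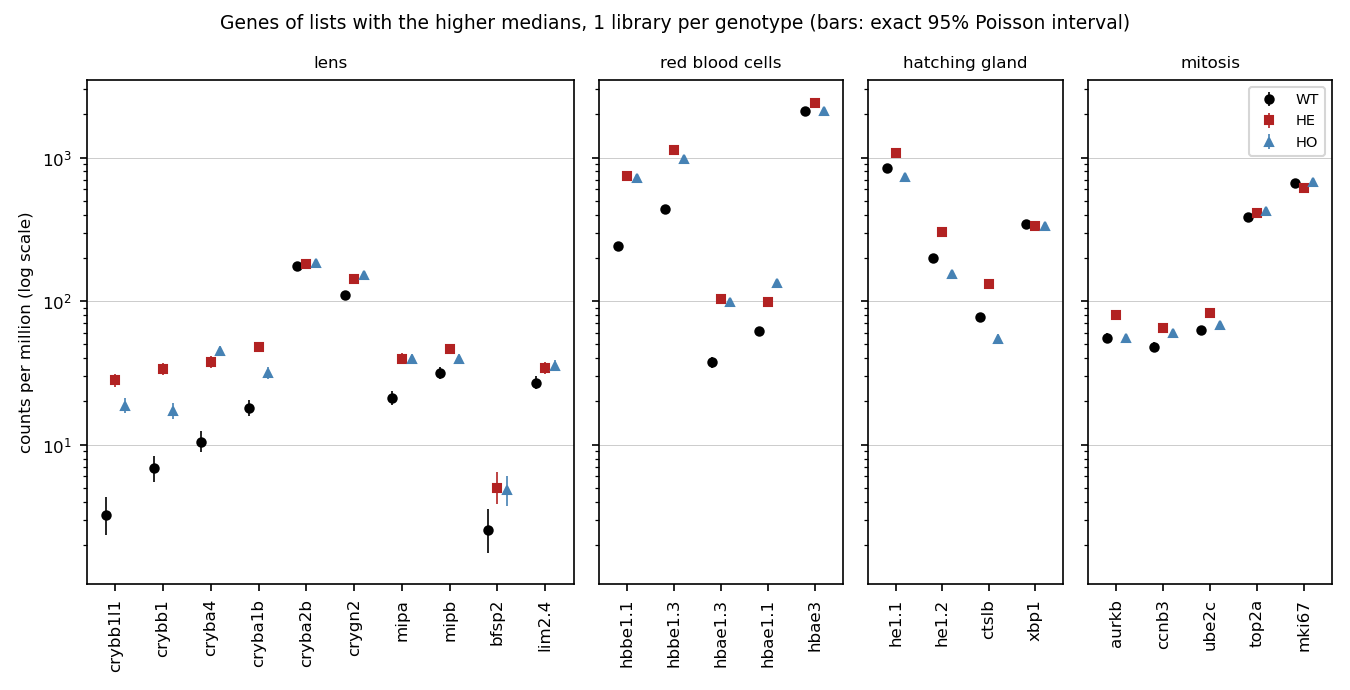
CPM (a gene's count as a share of its library's total, log scale) in the WT (black circles), HE (red squares) and HO (blue triangles) libraries are shown for genes of the lens, red blood cells, hatching gland and mitosis, with exact 95% Poisson intervals as bars; ctslb is the copy with 1041 counts in WT. WT is the lowest library in crybb1l1 (43 counts against 358 in HE and 265 in HO) and hbbe1.1, and HE is the highest in he1.1, he1.2 and ctslb.

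Lists tied to growth and division had medians of either sign, and that of mitosis lay above the upper quartile of all tested genes, 0.16. The mitosis list, with all 29 genes tested, had a median of 0.19 (quartiles 0.11 and 0.30), with 24 genes higher and 5 lower, 21 of the higher and 2 of the lower past counting error. This was 79.3% of the list, against 25.5% of all tested genes, a share that grew with depth. The kinase gene aurkb, a part of the chromosomal passenger complex, had 739 counts in WT, 1025 in HE and 782 in HO (0.56, 0.43 to 0.70). The cyclin gene ccnb3 had 642, 822 and 846 (0.45, 0.30 to 0.60), and ube2c, which loads ubiquitin on targets of the anaphase-promoting complex, had 841, 1060 and 964 (0.42, 0.29 to 0.56). HE and HO were both above WT in ccnb3 and ube2c, while HO was near WT in aurkb. The proliferation gene mki67, with an exonic length of 8187 bases, was lower, with 8875, 7879 and 9602 counts (-0.08, -0.12 to -0.04), and was at 0.041 (-0.0033 to 0.085) with the trend over length removed. DNA replication (50 genes) had a median of 0.07, with 17 genes higher and 2 lower past counting error (38%). Its sliding clamp gene pcna had 8850, 8748 and 8583 (0.07, 0.03 to 0.12). The 2 genes named rrm2, a subunit of ribonucleotide reductase, went opposite ways, with 1391, 784 and 2387 counts in 1 and 4238, 5421 and 3828 in the other, and their sum differed by 0.23 (0.18 to 0.28), so that their separate values are uncertain. Nucleotide synthesis (18 genes) had a median of -0.0041. Ribosome biogenesis (52 genes) had a median of -0.08, with 16 genes higher and 36 lower, 2 and 9 of them past counting error. Those past counting error were 21.2% of that list, under the 25.5% of all tested genes. The nucleolar gene ncl had 7241, 5849 and 6151 counts (-0.22, -0.27 to -0.17).

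In the nervous system, the proneural list (20 genes) had a median of 0.12 and the neural progenitor list (28 genes) 0.10. Past counting error, 8 and 10 genes were higher and 2 and 2 lower. Those were 50% and 42.9% of the lists, against 25.5% of all tested genes. The bHLH gene neurod4, which drives neuronal differentiation, had 2872 counts in WT, 3191 in HE and 3338 in HO (0.24, 0.17 to 0.32). Mature neuron genes had a median of -0.00067 over 36 genes, and elavl3 was at -0.03 (-0.06 to 0.01). The list of transmitter genes had a median of -0.09 over 27 genes. Its share past counting error was 11.1%, against 25.5% of all tested genes, with none higher and 3 lower. These were the glutamate receptor gene gria1a with 394, 230 and 325 counts (-0.68, -0.93 to -0.45), the glycine transporter gene slc6a5 with 571, 421 and 606 (-0.35, -0.53 to -0.16) and the glycine receptor gene glra1 with 424, 324 and 404 (-0.30, -0.51 to -0.09). In these last 3 genes HE was the lowest library.

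Lists of protein breakdown and of mitochondria had medians between -0.01 and 0.14. Of 39 proteasome genes, 35 were higher and 4 lower, 22 and 0 of them past counting error, with a median of 0.12. Those past counting error were 56.4% of the list, against 25.5% of all genes. The assembly chaperone gene psmd5 had 330, 418 and 360 counts (0.43, 0.22 to 0.64) and the core subunit gene psmb4 had 2663, 2774 and 2762 (0.15, 0.07 to 0.23). Lysosomal hydrolases had a median of -0.0053 over 33 genes, 16 higher and 17 lower, with 10 and 5 past counting error (45.5%). The fatty acid oxidation list had a median of 0.14 over 19 genes, of which 18 were higher, and 9 were past counting error (47.4%). The electron transfer flavoprotein genes etfa and etfb had 1633, 1860 and 1734 counts (0.28, 0.18 to 0.38) and 2307, 2599 and 2507 counts (0.26, 0.18 to 0.34). Mitochondrial ribosomal proteins (74 genes) had a median of 0.11, with 57 higher and 17 lower, of which 11 and 1 were past counting error, together 16.2% against 25.5% of all genes. Complex I had a median of 0.06 over 35 genes, with 10 higher and 2 lower past counting error (34.3%). Complexes II to V had a median of 0.06 over 52 genes, with 17 and 3 past counting error (38.5%). In the latter list cox5b2 was lower past 2-fold (42, 18 and 27 counts, -1.06, -2.02 to -0.30). The 13 protein-coding mRNAs of the mitochondrial genome had a median of 0.12, and mt-co1 had 130208, 134301 and 145493 counts (0.14, 0.12 to 0.15). These medians lie within the quartiles of all tested genes.

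Skin genes were divided. Keratins had a median of 0.14 over 20 genes, with 10 higher and 2 lower past counting error (60%, against 25.5% of all tested genes). The keratin gene krt17 had 553 counts in WT, 739 in HE and 838 in HO (0.51, 0.35 to 0.67), while krt94 had 213, 136 and 206 (-0.55, -0.88 to -0.24). Junction and barrier genes had a median of 0.03 over 16 genes. Ionocytes, the ion-transporting cells of the skin, had a median of 0.07 over 17 genes. Past 2-fold were 2 of them, both higher, against 0.981% of all tested genes that were higher past 2-fold. These were the sodium-proton exchanger gene slc9a3.2 with 11, 31 and 26 counts (1.43, 0.55 to 2.73) and the sodium pump gene atp1a1a.5 with 50, 96 and 63 (1.00, 0.52 to 1.56). The latter is 1 of 5 atp1a1a copies, whose summed counts were 9114 in WT, 9417 in HE and 10220 in HO (0.14, 0.10 to 0.18). In the pronephros, the embryonic kidney, the salt transporter gene slc12a3 had 38, 76 and 72 counts (1.05, 0.51 to 1.69). The list's median was -0.16 over 16 genes, with 2 genes higher and 3 lower past counting error. Those were 31.25% of the list, against 25.5% of all tested genes. The anion exchanger gene slc4a2a of that list had 386, 233 and 351 (-0.63, -0.88 to -0.40).

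Of the lowest named genes, fkbp5 had the most counts in WT. It encodes an immunophilin that binds the Hsp90 and glucocorticoid receptor complex, and its counts were 879 in WT, 205 in HE and 278 in HO (-2.0, -2.24 to -1.79). The HO library was also low in this gene. The AP-1 gene fosl1a had 109, 24 and 53 counts (-2.01, -2.79 to -1.44), and the galectin gene lgals1l1 had 477, 155 and 456 (-1.52, -1.80 to -1.27). In lgals1l1 only the HE library was low. The metalloproteinase gene mmp9, expressed in leukocytes and wounded tissue, had 179, 78 and 151 (-1.09, -1.51 to -0.72), and the glutathione transferase gene gsta.2 had 150, 67 and 172 (-1.05, -1.51 to -0.65). The gene arnt, the partner of bHLH-PAS factors, had 126, 55 and 120 counts (-1.08, -1.59 to -0.64). The muscle gene xirp2b had 162, 75 and 135 (-1.0, -1.43 to -0.62), the matrix gene mxra5b 103, 42 and 63 (-1.17, -1.76 to -0.67), and a gene named DOCK4 (1 of many) 132, 56 and 116 (-1.12, -1.62 to -0.68).

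The remaining named genes with high log2 ratios belong to no list. The genes ggact.3 and ggact.2, copies of gamma-glutamylamine cyclotransferase, had 83, 274 and 129 counts (1.79, 1.45 to 2.19) and 175, 473 and 172 counts (1.51, 1.27 to 1.78) in WT, HE and HO. HE was the highest library in both. Summed over 3 copies, the log2 ratio was 1.61 (1.42 to 1.81) for HE over WT and 0.14 (-0.09 to 0.38) for HO over WT. The secreted angiopoietin-like gene angptl6 had 44, 113 and 89 counts (1.41, 0.94 to 1.99), the sulfotransferase gene sult2st3 had 73, 163 and 188 (1.23, 0.84 to 1.67) and the deubiquitinase gene usp45 had 61, 133 and 170 (1.19, 0.77 to 1.68). In these 3 genes the WT library was the lowest.

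The heat shock list had a median of 0.05 over 20 genes. Past counting error were 5 genes higher and 5 lower (50%, against 25.5% of all tested genes). The small heat shock gene hspb9 had 248 counts in WT, 74 in HE and 148 in HO (-1.63, -2.05 to -1.27), and hsp70.3 had 94, 38 and 102 (-1.18, -1.80 to -0.66). The collagen chaperone gene serpinh1b was higher, with 2367, 3509 and 3021 (0.66, 0.58 to 0.73). Immediate early genes had a median of 0.03 over 28 genes, with 6 higher and 5 lower past counting error (39.3%). In that list fosl1a and the cytokine feedback gene socs3a (90, 37 and 57 counts, -1.15, -1.78 to -0.62) were past 2-fold. Antioxidant genes had a median of 0.11 over 20 genes, with 5 higher and 3 lower past counting error (40%). The haem oxygenase gene hmox1a had 750, 428 and 582 counts (-0.72, -0.89 to -0.55), its regulator nfe2l2a 535, 344 and 489 (-0.54, -0.75 to -0.35) and the peroxiredoxin gene prdx1 1221, 1519 and 1350 (0.41, 0.30 to 0.52). The unfolded protein response, p53 and integrated stress lists had medians of 0.04, 0.04 and 0.02.

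The circadian clock list held 37 tested genes with a median of -0.08, of which 14 were higher and 23 lower. Of these, 2 and 10 were past counting error, and 2 were lower past 2-fold. Those past counting error were 32.4% of the list, against 25.5% of all tested genes. The clock-output gene tefb, a PAR bZIP factor, had 273 counts in WT, 125 in HE and 227 in HO (-1.02, -1.35 to -0.73), and nfil3-6, a bZIP factor of the opposing family, had 40, 16 and 11 (-1.14, -2.17 to -0.36). The period gene per1b had 139, 65 and 115 (-0.99, -1.45 to -0.57). Among members named after their values were seen, the nuclear receptor genes nr1d2a and nr1d2b, which repress clock genes, had 611, 355 and 392 counts (-0.69) and 419, 298 and 380 counts (-0.40), clocka had 145, 105 and 127 (-0.37) and clockb 293, 219 and 236 (-0.33). These members were all picked from the lower side, while the highest of the 14 higher genes was at 0.92. The clock gene with the most counts, cry1ba, had 3824, 3593 and 4217 (0.0011, -0.07 to 0.07), and per2 and per3 did not pass counting error. The hour of day at which the embryos were collected is not given in the sources used here.

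Glycolysis (29 genes) had a median of -0.09, with 22 genes lower and 7 higher, 14 and 3 of them past counting error. Those past counting error were 58.6% of the list, against 25.5% of all tested genes, a share that grew with depth. The members with the largest differences were 3 genes of phosphofructokinase, the enzyme of the committed step. In pfkmb the counts were 402 in WT, 208 in HE and 333 in HO (-0.85, -1.11 to -0.61), in pfkpb 76, 41 and 48 (-0.77, -1.38 to -0.23), and in pfkma 357, 218 and 316 (-0.62, -0.87 to -0.37). HE was the lowest library in the 3 genes, although close to HO in pfkpb. The members with the most counts differed less, and gapdh had 15024, 13696 and 13952 (-0.04, -0.08 to -0.01). The citrate cycle list had a median of 0.05 over 20 genes, with 6 higher and 0 lower past counting error (30%).

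In fast skeletal muscle, 38 of 41 genes were tested, with a median of -0.11, 12 higher and 26 lower, 9 and 20 of them past counting error. Those past counting error were 76.3% of the list, against 25.5% of all tested genes, a share that grew with depth. The giant thin-filament gene neb had 1371 counts in WT, 809 in HE and 1407 in HO (-0.67, -0.80 to -0.54), the M-band gene myom2a had 1569, 1062 and 1456 (-0.47, -0.59 to -0.36) and the calcium release channel gene ryr1b had 403, 276 and 478 (-0.45, -0.68 to -0.23). HE was the lowest library in each. The actin gene actc1b had 112526, 88089 and 108503 counts (-0.26, -0.27 to -0.25), whereas the light chain gene mylpfa had 62394, 64544 and 65258 (0.14, 0.12 to 0.16) and tpma, a tropomyosin gene, 42796, 40143 and 43312 (-0.0013, -0.02 to 0.02). Muscle genes thus went both ways. Among members named after their values were seen, the troponin I gene tnni2a.4 had 15438, 19282 and 17513 (0.41). Slow muscle had a median of 0.0046 over 11 genes, and its calcium channel gene ryr1a had 211, 105 and 190 (-0.90, -1.27 to -0.57). Heart genes had a median of -0.02 over 18 genes, with 1 higher and 5 lower past counting error (33.3%, against 25.5% of all tested genes). The heart gene ryr2b, of 20050 bases, was lower past 2-fold, with 41, 15 and 47 counts (-1.26, -2.32 to -0.48).

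The yolk lipoprotein list, whose genes are expressed in the yolk syncytial layer and serve the export of yolk lipid, had a median of -0.12 over 18 genes. Past counting error were 4 higher and 11 lower. Those were 83.3% of the list, against 25.5% of all tested genes, a share that grew with depth. The apolipoprotein B gene apobb.1 had 101435 counts in WT, 79342 in HE and 125312 in HO (-0.26, -0.28 to -0.25), and apoa1a had 71101, 60946 and 72465 (-0.13, -0.15 to -0.12). In both, HE was the lowest library. Among abundant genes (a mean of at least 1000 counts in WT and HE), a rule set after the values were seen, apoa4b.2 with 1680, 885 and 1166 counts (-0.83, -0.95 to -0.72) and apoea with 6277, 3519 and 5558 (-0.74, -0.80 to -0.68) had the lowest log2 ratios of 2426 genes. The methionine adenosyltransferase gene mat1a followed among the lowest, with 4721, 2694 and 2917 (-0.72, -0.79 to -0.65). The liver list had a median of 0.03 over 14 genes, and its transferrin gene tfa had 15949, 14996 and 16898 (0.0021, -0.03 to 0.03). The hepatocyte gene fabp10a had 1 count in WT and 0 in HE, and whether the transcripts of this list came from liver cells was not tested.

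**Figure D4:**
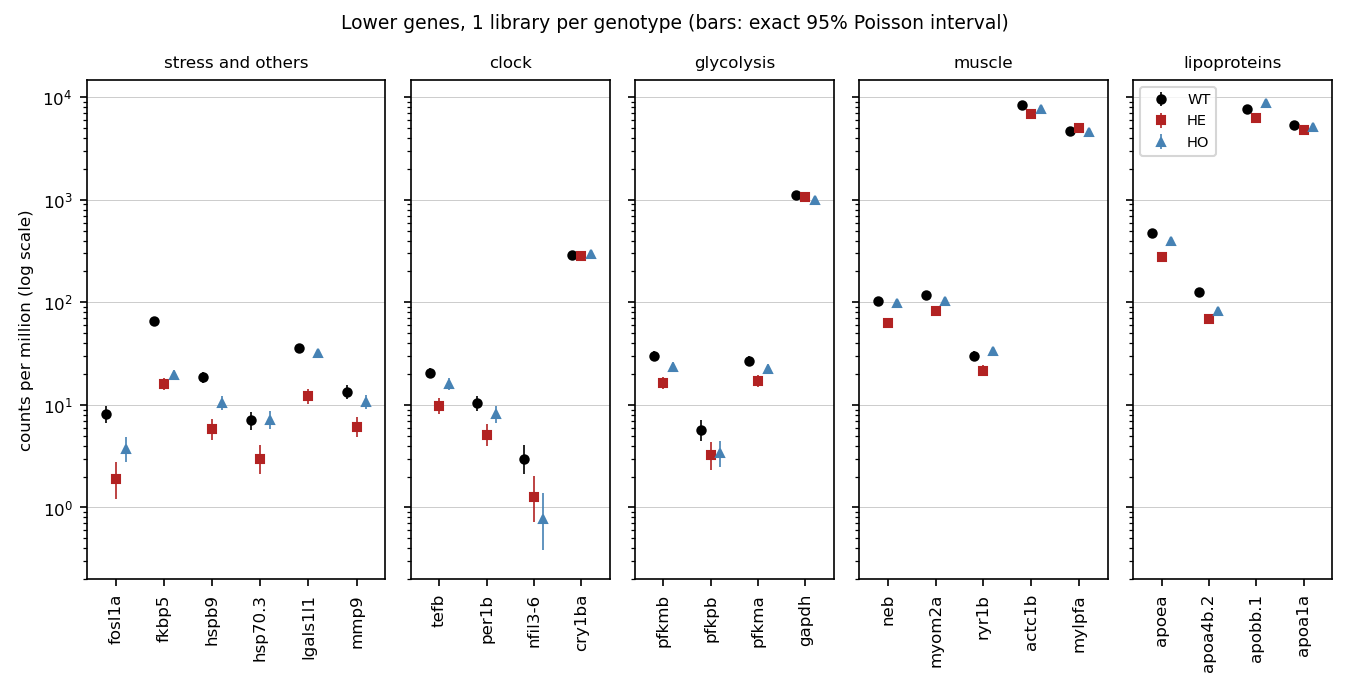
CPM (a gene's count as a share of its library's total, log scale) in the WT (black circles), HE (red squares) and HO (blue triangles) libraries are shown for genes that were lower in HE and, within the same lists, genes with more counts, with exact 95% Poisson intervals as bars. HE is the lowest library in fosl1a, hspb9, hsp70.3, lgals1l1, pfkmb, neb and apoea, whereas fkbp5 is low in HE and HO (205 and 278 counts against 879 in WT).

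Lists of blood vessels, myeloid cells and matrix had members past counting error in both directions, against a share of 25.5% among all tested genes. Endothelial genes had a median of -0.07 over 28 genes, with 3 higher and 3 lower past counting error (21.4%, under the share of all genes). The receptor gene kdrl was at -0.21 (-0.36 to -0.06), and etv2, the factor that specifies vessel and blood precursors, had 143, 181 and 174 counts (0.43, 0.11 to 0.76). Primitive myeloid cells had a median of 0.08 over 22 genes, with 6 higher and 2 lower past counting error (36.4%), and 1 past 2-fold each way. The neutrophil peroxidase gene mpx had 524 counts in WT, 699 in HE and 597 in HO (0.51, 0.34 to 0.67), npsn had 436, 532 and 592 (0.38, 0.19 to 0.56), and the macrophage protease gene ctss2.1 had 364, 181 and 626 (-0.91, -1.18 to -0.66). The members past 2-fold were the macrophage scavenger receptor gene marco, higher with 13, 29 and 19 counts (1.13, 0.26 to 2.32), and mmp9, lower at -1.09. Collagens had a median of -0.02 over 47 genes, with 6 higher and 7 lower past counting error (27.7%, near the share of all genes). Laminins and matrix glycoproteins had -0.06 over 32 genes, with 9 higher and 23 lower, 5 and 12 of them past counting error (53.1% in all). The median of that list was -0.02 with the length trend taken out. Its fibronectin gene fn1b had 2328, 1399 and 2082 (-0.64, -0.74 to -0.55). Pigment cell genes had medians of -0.06 (melanophores, 14 genes) and -0.05 (xanthophores and iridophores, 13 genes).

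The targets of signalling pathways had small medians, which were 0.12 for Bmp, 0.06 for Notch, 0.06 for Fgf, -0.01 for Hedgehog, -0.05 for retinoic acid and -0.13 for Wnt targets, over 21, 13, 16, 11, 16 and 13 genes. Among Bmp targets, id1, an inhibitor of bHLH factors, had 5774, 6893 and 6339 counts (0.35, 0.30 to 0.40). Among Wnt targets, axin2 had 1413, 1331 and 1422 (0.0047, -0.10 to 0.11) and lef1 1240, 924 and 1280 (-0.33, -0.46 to -0.21). Of the Wnt targets, 1 was higher and 3 lower past counting error (30.8%, against 25.5% of all tested genes). The higher was sp5l, also past 2-fold, with 3, 17 and 13 counts (2.01, 0.80 to 5.01), where WT was at the floor of 3 counts. The interferon list had 7 tested genes of 29 and none past counting error, so that its median of -0.23 rests on genes with few counts.

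The enzymes and readers of H3K36 methylation were examined because the mutated gene belongs to them. The gene setd2 itself was not lower in HE. Its log2 ratio of HE over WT was 0.12 (0.02 to 0.23), with 1348, 1380 and 2087 counts in WT, HE and HO, so that the counts of the targeted gene do not identify the genotypes, and each direction given here rests on the labels. For HO over WT the log2 ratio of setd2 was 0.55 (0.45 to 0.65). By RT-qPCR at a later age, the paper found setd2 mRNA strongly decreased in homozygous but not heterozygous E3fs1 embryos. It reports no change in the E19fs1 line, and the labels do not name the line used here. Total counts do not separate transcripts of the intact and the mutated allele. Among the other H3K36 methyltransferases, ash1l had 1691, 1423 and 1909 counts (-0.16, -0.26 to -0.06), nsd3 had 923, 732 and 1070 (-0.24, -0.39 to -0.10), nsd1a had 1274, 1097 and 1501 (-0.12, -0.24 to -0.01), nsd1b had 64, 48 and 54 (-0.31, -0.90 to 0.24) and nsd2 had 1810, 1774 and 2062 (0.06, -0.03 to 0.16). By log2 ratio over WT, HE was the lowest library in ash1l, nsd3 and nsd1a but not in nsd2. In nsd1b, HE and HO lay close to each other, at -0.313 and -0.316. With the median of genes of similar length subtracted, ash1l was at -0.036 (-0.14 to 0.066) and nsd1a at -0.0032 (-0.12 to 0.11), no longer past counting error, while nsd3 was at -0.23 (-0.38 to -0.09) and setd2 at 0.25 (0.14 to 0.36). The writers as a list had 3 genes higher and 5 lower past counting error (72.7%, against 25.5% of all tested genes). The member past 2-fold was setmar, higher with 6, 21 and 13 counts (1.61, 0.54 to 3.50). The list had a median of -0.12 over 11 genes, and of -0.0032 once the length trend was taken out. The demethylases had a median of -0.02 over 10 genes, with 0 higher and 1 lower past counting error (10%). The readers had a median of 0.03 over 22 genes, with 5 higher and 0 lower (22.7%). Both shares were under the 25.5% of all tested genes. The de novo DNA methyltransferase gene dnmt3bb.2, whose PWWP domain belongs to the family that reads the mark, had 595, 700 and 707 counts (0.32, 0.17 to 0.49). Splicing genes had a median of 0.08 over 53 genes, with 19 higher and 4 lower past counting error (43.4%). Among all tested genes that share grew with depth. It was 33.0% at a mean of 500 to 1000 counts in WT and HE and 45.7% at 1000 to 5000. Among the splicing genes, srsf2b had 512, 722 and 1042 (0.58, 0.42 to 0.75).

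The log2 ratio moved with exonic length. Its median was 0.03 for the 1590 genes under 1000 bases, 0.04 for the 5490 genes of 1000 to 2000 bases and -0.13 for the 794 genes of 8000 bases or more. For HO over WT, which rests on the same WT library, the medians ran the other way, from -0.08 in the shortest to 0.06 in the longest genes. Of the genes above, the long ones include neb (19942 bases), ryr1a (16015), ash1l (12685), setd2 (11279), nsd1a (10686) and fn1b (9157). Among the lowest named genes, xirp2b (14127), mxra5b (8828), per1b (7782) and DOCK4 (1 of many) (7653) are long too. The short ones include hbbe1.1 (684), hspb9 (800) and lgals1l1 (868). With the median of genes of similar length subtracted, the lists kept medians of 0.25 (crystallins), 0.55 (lens membrane), 0.18 (red blood cells), 0.32 (hatching gland), 0.17 (mitosis), -0.11 (fast muscle), -0.11 (glycolysis) and -0.09 (yolk lipoproteins). Of the single genes, neb was then at -0.55 and fn1b at -0.52, against -0.67 and -0.64 before, and hbbe1.1 (1.63) and hspb9 (-1.64) differed little from their first values.

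**Figure D5:**
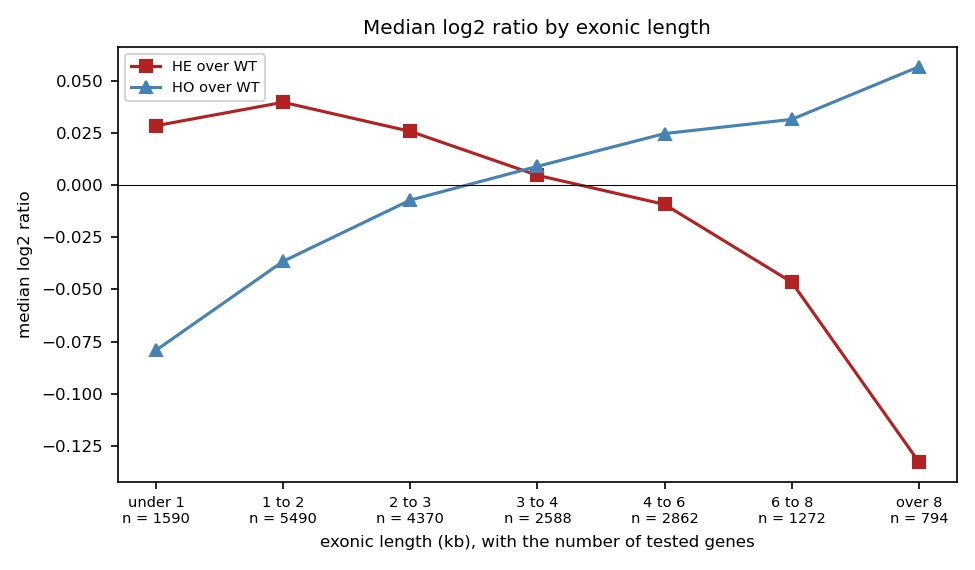
The median log2 ratio (y axis) is plotted for 7 bins of exonic length in kb (x axis, with the number of tested genes), as red squares for HE over WT and blue triangles for HO over WT, 2 comparisons that share the WT library. The HE medians fall from 0.04 in genes of 1000 to 2000 bases to -0.13 in genes of 8000 bases or more, and the HO medians run from -0.08 to 0.06.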

How the data were processed

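RNA of whole embryos was sequenced in 3 libraries, WT, HE and HO, with 1 for each genotype. The deposited counts are the authors' raw numbers of reads per gene, without normalization. The deposited FPKM values were recovered from counts, exonic lengths and library totals to within 0.005. The submitters' processing notes name HISAT2 2.0.2 and GRCz11, whereas the paper names TopHat, Cufflinks and the earlier assembly. The kits named also differ, since the paper names a stranded kit and the labels name others. The counting tool, the annotation release and the strand setting are not given in the sources used here, so that reads of overlapping and antisense genes cannot be told apart. In 1 per-library table a column is headed with another library's name, and this column was not used. The per-library and series tables held 0 counts that differ. Of 32520 gene IDs, 29201 were in the reference of gene names, and 19 names had been turned into dates by a spreadsheet.

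Counts were scaled by TMM in edgeR 4.0.16 (R 4.3.3), with factors of 1.01, 0.989 and 1.00 for WT, HE and HO. Log2 ratios used a prior count of 2, and genes needed a mean of at least 10 counts over the 3 libraries. The 95% interval of a ratio comes from the exact binomial share of the counts of both libraries. Intervals and the floor of 3 counts cover counting error only. With 1 library for each genotype there is no p-value.

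The members and lists were chosen with earlier results of these data known. The named genes were setd2 and 5 homologues, the 12 highest and 12 lowest among genes with at least 100 counts in WT or HE, an interval that excluded 0 and a gene symbol that is not a clone name, and, in each list, up to 3 genes with the most counts and up to 3 with the largest differences among those past 2-fold, or, where none was, past counting error. Other genes are said to have been named after their values were seen. The 10 alternatives were size factors of DESeq2 1.42.0, total counts, TMM of WT and HE alone, log2 of FPKM (pseudocounts 1 and 0.1), the whole table unfiltered, a mean of at least 100, a mean of at least 10 in WT and HE alone, a prior count of 0.25, and removal of the length trend (the median of 20 bins of exonic length subtracted). The scripts were tested on simulated counts with known differences and counting error alone. Variation between embryos or libraries was not simulated. Python 3.11.15, scipy 1.17.1, pandas 2.3.3, matplotlib 3.10.9 and numpy 2.4.6 were used. No sequences or positions are given.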

Additional observations from a re-analysis of the deposited data

How the results depend on the processing

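The counts of genes past 2-fold rested on genes with few counts. Against 186 higher and 324 lower genes, there were 29 and 37 with FPKM and a pseudocount of 1, 969 and 944 with no filter, and 21 and 13 with a minimum mean of 100. In either direction, 46 of 510 genes had at least 100 counts in the higher library, a threshold applied here after seeing the data. Counts past counting error stayed within 1.5 times under each alternative run, with 2002 higher and 2780 lower under scaling by total counts, and could not be had for FPKM. The median of large ribosomal subunit proteins, 0.02, became -0.01 with total counts and with FPKM under either pseudocount (-0.0116 in each) and -0.0016 with the length trend removed. That removal also turned mki67 (to 0.041), prpf8 (to 0.038), tnc (to 0.031) and cenpf (to 0.022), each lower past counting error before. The crystallin median was 0.17 with no filter, over 56 genes. Of 810 values of 81 list medians under the alternatives, 804 stayed within the 95% order-statistic range of the list's own median. That range treats the genes of a list as independent and is wide in lists with few genes. Staying within it is therefore no measure of stability. The median of all tested genes was -0.02 with total counts, against 0.0065. Depth limits genes under 20 counts most, where counting alone gave an SD of 0.57 in the log2 ratio. No paired analysis was possible because each genotype has 1 library.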

Other observations

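A set of 10 genes known to be induced by cortisol in fish or mammals was drawn up after fkbp5 was seen among the lowest genes, so that its count is a description. With fkbp5 included, its median log2 ratio of HE over WT was -0.36. Of the set, 2 genes were higher and 8 lower, against 9673 and 9293 of all tested genes. Past counting error were 1 higher and 5 lower (60%, against 25.5% of all tested genes). Beside fkbp5, the transcription factor gene klf9 had 88 counts in WT, 22 in HE and 35 in HO (-1.82, -2.65 to -1.22). The gluconeogenesis gene pck1 had 1037, 604 and 847 (-0.69, -0.84 to -0.54). The cortisol-inactivating enzyme gene hsd11b2 had 531, 388 and 387 (-0.36, -0.55 to -0.17), and tsc22d3 (Gilz) had 891, 655 and 835 (-0.35, -0.50 to -0.21). The other members were not alike, since sgk1 had 645, 632 and 661 counts (0.06, -0.10 to 0.22) and dusp1 1836, 1870 and 2174 (0.12, 0.02 to 0.21). Lower but not past counting error were per1a with 18, 9 and 13 counts (-0.79, -2.25 to 0.32), pdk4 with 202, 176 and 169 (-0.11, -0.41 to 0.19) and cebpd with 652, 593 and 577 (-0.05, -0.21 to 0.12).

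Next to the hatching gland genes, 10 genes that the reference annotation names ctslb or lists under the synonym ctsl were gathered after some were seen among the high genes. Most have clone names and no assigned role, and their reads may be shared. Their counts summed to 16677 in WT, 23397 in HE and 15679 in HO, a log2 ratio of 0.58 (0.55 to 0.61) for HE over WT and -0.17 (-0.20 to -0.14) for HO over WT, with the same WT library in both. Of the 10 genes, 8 were higher and 2 lower past counting error (100%, against 25.5% of all tested genes, a share that grew with depth). Both ctslb genes of the hatching gland list are among them. Since the genes were gathered for high members, this count is a description. The highest was si:dkey-239j18.2, with 27, 116 and 16 counts (2.11, 1.58 to 2.86), followed by si:dkey-26g8.5 with 279, 691 and 164 (1.39, 1.2 to 1.61). The lowest was ctsll, with 221, 130 and 96 (-0.67, -1.0 to -0.36).

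Genes named only by clone or accession made up 19.7% of tested genes, 48.4% of those higher past 2-fold and 38.0% of those lower. Genes past 2-fold mostly had few counts, and the clone-named share was not compared among genes of like counts. Of the clone-named genes past 2-fold, 11 higher and 7 lower had at least 100 counts in WT or HE, among 28 and 18 such genes of any name. Among those named after their values were seen, CR855311.1 had 181 counts in WT, 76 in HE and 28 in HO (-1.14, -1.57 to -0.77). In LO017829.1 they were 147, 295 and 620 (1.09, 0.81 to 1.39). HE lay between WT and HO in both. Other genes of this group were not graded in this way, such as si:dkey-286j17.4 with 131, 48 and 233 counts and si:dkey-26g8.5 with 279, 691 and 164.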
